A study of Mus musculus with 34 samples.

Results

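Muscle DNA from adult mice was compared with DNA of 7 other adult tissues at CpG islands, and the muscle samples are 2 of the 34 arrays of the series, muscle replicates 1 and 2 by their labels. The other side of the comparison holds 14 arrays, 2 each of brain, colon, kidney, liver, lung, pancreas and spleen. Methylated DNA was enriched with an antibody to 5-methylcytidine (methyl-DNA immunoprecipitation, mDIP), and each array read the bound DNA in Cy5 against the input DNA in Cy3. All these samples came from C57Bl/6 mice with an age of 3 months. Muscle replicate 1 was from a female and replicate 2 from a male. Brain, kidney, liver and spleen had the same order of sexes, both lung arrays were female and all colon and pancreas arrays were male. The labels say only "muscle", so the muscle taken and its share of fast and slow fibres are not known, and whole tissue also holds vessels, nerve, connective tissue and satellite cells. The sexes show separate animals for muscle, brain, kidney, liver and spleen. Nothing says so for colon, lung and pancreas, whose spread may be technical, and p-values measure only the spread between these arrays.

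CpG islands are stretches rich in CG dinucleotides that often surround the start sites of genes, and most are kept free of methylation. Some are methylated in a tissue-dependent manner. Muscle identity is set by the myogenic factors Myod1, Myf5, Myf6 and Myog, which bind E-boxes and switch on genes of the sarcomere, of calcium handling and of energy supply. mDIP reads the average methylation of the CGs under a probe.

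An island was a run of at least 3 probes with gaps of at most 500 bases, and its island methylation score (IMS) averaged the Z-scores of its probes, where a Z-score is the log10 ratio of bound over input in units of that array's own SD. A score of 0 is the average probe of the array, and the study's threshold for a modified island is an IMS above 0.75. The study also took the Tm of each probe into account in its Z-scores, which was not done here, so that an island above 0.75 here need not be one by the study's own score. In all, 13291 islands on chromosomes 1 to 19 were scored on every adult array, the median island holding 6 probes within 681 bases. Of these, 11887 carried a gene name. Positions are as the files give them, with the build not named there, and the annotation of each probe as promoter, inside a gene or downstream is that of the array design, which does not say whether a probe lies in an exon or an intron.

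Upstream sequence is shown for 4 genes whose islands lie at the start site and which are described here. The difference of muscle from the other tissues was negative at 3 and positive at 1, Calm3, and none passed the test described below. Each line is the 250 bases before the RefSeq start site in GRCm38.p6, 5′ to 3′ on the strand of the gene, with every CG, the dinucleotide that can carry the methylation, in capitals. The start sites of the array design and of RefSeq were not matched base by base. The windows are, in the order printed, chr4:43523555-43523804 (minus strand), chr1:74748956-74749205 (minus strand), chr9:102505888-102506137 (plus strand) and chr7:16924033-16924282 (minus strand).
Tpm2: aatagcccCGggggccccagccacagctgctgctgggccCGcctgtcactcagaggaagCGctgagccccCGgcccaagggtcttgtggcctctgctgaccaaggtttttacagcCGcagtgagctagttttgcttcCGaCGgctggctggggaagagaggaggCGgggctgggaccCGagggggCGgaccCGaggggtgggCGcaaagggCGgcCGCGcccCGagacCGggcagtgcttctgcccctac
Prkag3: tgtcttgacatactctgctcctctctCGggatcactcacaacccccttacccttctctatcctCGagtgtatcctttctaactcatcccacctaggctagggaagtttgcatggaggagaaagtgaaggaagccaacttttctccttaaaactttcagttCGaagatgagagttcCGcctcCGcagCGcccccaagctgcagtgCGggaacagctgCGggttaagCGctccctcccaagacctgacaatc
Ky: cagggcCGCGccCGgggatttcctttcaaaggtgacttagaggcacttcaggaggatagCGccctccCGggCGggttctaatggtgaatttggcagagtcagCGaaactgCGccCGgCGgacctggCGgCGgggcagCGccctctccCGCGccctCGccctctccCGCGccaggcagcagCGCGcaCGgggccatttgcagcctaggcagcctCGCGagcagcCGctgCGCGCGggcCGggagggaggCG
Calm3: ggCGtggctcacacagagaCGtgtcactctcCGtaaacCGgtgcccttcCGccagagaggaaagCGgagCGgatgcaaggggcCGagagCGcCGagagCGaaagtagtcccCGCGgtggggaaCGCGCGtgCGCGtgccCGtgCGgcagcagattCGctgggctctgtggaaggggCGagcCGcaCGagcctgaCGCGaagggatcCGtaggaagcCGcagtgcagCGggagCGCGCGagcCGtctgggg
They hold 17, 9, 29 and 33 CGs, and over 32851 RefSeq promoters of this length the median is 6. At least as many CGs are found in 23.5% of them for Tpm2, 40.3% for Prkag3, 6.78% for Ky and 4.03% for Calm3. The E-box CANNTG, which reads the same on both strands, occurs 1 time in each of Tpm2, Prkag3 and Ky and not in Calm3, and 66.2% of all these promoters hold it.

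The muscle arrays differed from the others in signal. The median bound signal over local background was 5.59 on muscle replicate 1 and 3.43 on replicate 2, both above the 1.54 to 3.24 of the 14 other arrays. The SD of the log10 ratios was 0.250 on muscle replicate 1, below the 0.283 to 0.508 of the other tissues, and 0.418 on replicate 2. Muscle replicate 1 carried the larger probe grid of 97651 probes, as did 9 other arrays, and shared its scan day with 5 of them (brain, kidney, liver, lung and spleen replicate 1) and its slide with lung replicate 1. Muscle replicate 2 carried the smaller grid of 88737 probes with 5 other arrays and was the one adult array of its slide and of its scan day. The part of signal, grid and scan day in the results below was not tested except where a value is given.

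**Figure D1:**
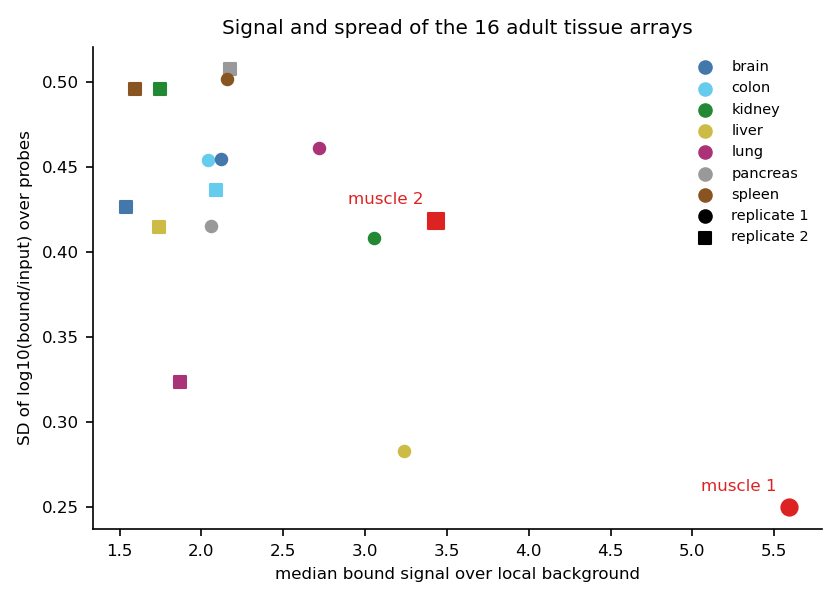
Each point is 1 of the 16 adult tissue arrays, with the median bound signal over local background on the x axis and the SD of log10(bound/input) over its probes on the y axis. Circles are replicate 1 and squares replicate 2. Muscle replicate 1 lies alone at 5.59 and 0.250, and muscle replicate 2 at 3.43 has the next highest signal.

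The broad pattern of island methylation in muscle was that of the other tissues. Across islands the muscle mean correlated with the means of the other tissues at Pearson's r between 0.918 (colon) and 0.973 (kidney), a description over islands that share arrays and probes. Both muscle arrays were above 0.75 at 1234 islands. At 994 of these all 14 other arrays were above 0.75 as well, at 1224 at least 7 were, and at no island modified on both muscle arrays were all others unmodified. Both muscle arrays were below 0 at 7883 islands, of which 4060 were below 0 on all 14 others. None of these 7883 was above 0.75 on 7 or more of the other arrays.

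The share of islands with an IMS above 0.75 was 9.86% on muscle replicate 1 and 11.5% on replicate 2. On the 14 other arrays it lay between 9.58% and 12.5% with a median of 11.3%. The means, 10.7% ± 1.15 (SD, n = 2) in muscle and 11.3% ± 0.943 (SD, n = 14) elsewhere, differed by less than the SD of either group (p = 0.417 in an exact two-sided permutation test, where 120 splits allow no p below 0.00833). The share of islands below 0 was 74.6% and 65.8% on the muscle arrays and 62.9% to 75.0% on the others (exact permutation p = 0.558), and the 2 muscle arrays thus lay near opposite ends of the range. Both permutation tests split single arrays and did not keep the 2 arrays of a tissue together, so their p-values do not refer to tissues.

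The comparison of island levels asked which islands are modified to a different degree in muscle. No island passed the test. A linear model with a mean for each of the 8 tissues (limma) set muscle against the average of the 7 other tissue means, and after Benjamini-Hochberg adjustment 0 of 13291 islands were higher and 0 were lower at an adjusted p under 0.05 (0.0% called in each direction), the smallest adjusted p being 0.9998. At an unadjusted p under 0.05 there were 178 islands (1.34%), 68 higher (0.512%) and 110 lower (0.828%). This is fewer than the share of 0.05 that evenly spread p-values would give. The p-values were thus larger than evenly spread ones, and the cause was not tested. That no island passed is to be read with this limit. The methods' t-test gave 159 (1.2%) unadjusted and 0 after adjustment. The median difference over all islands was -0.01, with a 5th percentile of -0.27 and a 95th of 0.23, and the median half-width of a 95% interval was 0.358. In data simulated on these arrays, 70% of islands changed by 1 Z unit were called and 0% of those changed by 0.5. The simulated noise was independent between arrays. On the real arrays the deviations of same-numbered arrays correlated at r = -0.32 to 0.49, so these shares need not hold for the real test.

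The 2 muscle arrays did not deviate together. They lay on the same side of the mean of the 14 others at 5136 of 13291 islands (38.6%), and across islands their deviations from that mean correlated at r = -0.27. The IMS of muscle replicate 1 followed kidney replicate 1 (r = 0.943) more closely than muscle replicate 2 (r = 0.882), and muscle replicate 2 followed kidney replicate 2 (r = 0.945). The r between the 2 arrays of a tissue was lower than in muscle for brain (0.838), liver (0.844) and lung (0.845). It was 0.888 in kidney, 0.908 in spleen, 0.938 in pancreas and 0.960 in colon. The median distance between the muscle arrays was 0.251, and that between the 2 arrays of a tissue was 0.166 to 0.282 elsewhere. The median size of the difference between muscle and the other tissues was 0.0859. For each other tissue, taken in the same way, it was 0.0821 (kidney) to 0.149 (colon). The distance is between single arrays and the difference between means of several, so these 2 kinds of value are not set against each other.

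**Figure D2:**
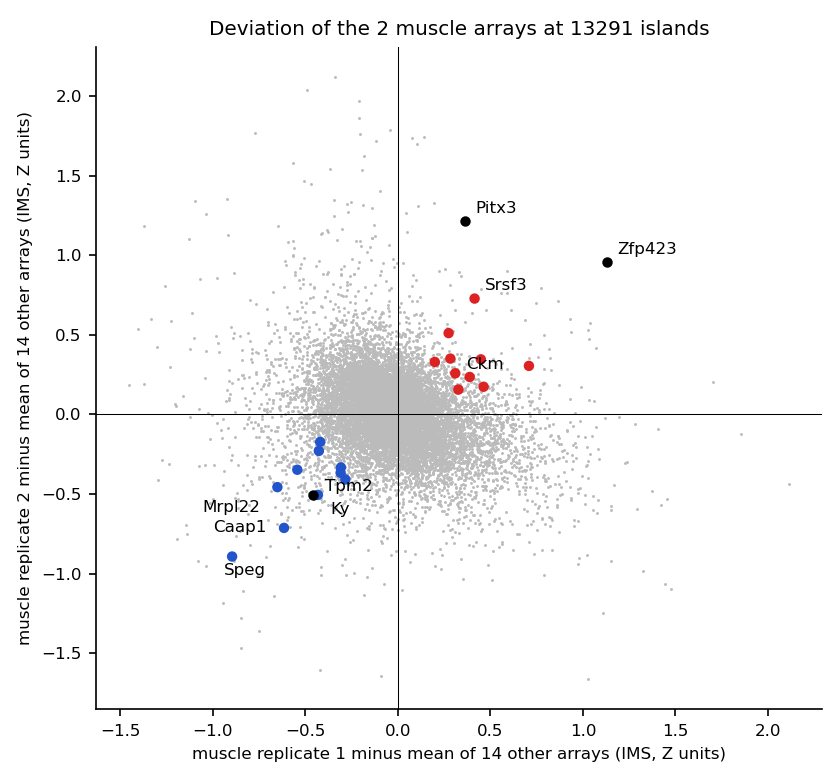
Each grey point is 1 of 13291 islands, with the deviation of muscle replicate 1 from the mean of the 14 other arrays on the x axis and that of replicate 2 on the y axis, in Z units of the IMS. Red and blue points are the 10 islands of each direction that are described by name because both muscle arrays lay beyond all others, and black points are Zfp423, Pitx3 and Tpm2. The cloud is tilted downwards (r = -0.27).

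Both muscle arrays lay above all 14 others at 20 islands (0.15%) and below all 14 at 24 (0.181%). Counted in the same way, kidney was above at 4 and below at 20, liver at 37 and 40, spleen at 25 and 66, lung at 64 and 56, brain at 102 and 84, pancreas at 218 and 99 and colon at 592 and 342. If the 16 arrays were interchangeable, 1 of 120 splits, a share of 0.00833, would put both muscle arrays beyond all others in a given direction. Both muscle shares were smaller, so lying beyond all others does not by itself mark an island as particular to muscle. Islands annotated as promoters made up 8 of the 20 above and 3 of the 24 below, against 2412 of the 13291 tested.

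Speg and Ky are described first among the islands lower on both muscle arrays than on every other array, as genes known from striated muscle. They were picked from the 24 after their values were seen and belong to none of the gene lists. The muscle gene lists held 0 of these 24 islands, which are 0.181% of all islands. Speg encodes a kinase of striated muscle that works at the junctions between membrane and calcium store. Its island (chr1:75258303-75258827, 4 probes from 119 bases before to 361 bases after a start site) had an IMS of 0.62 on muscle replicate 1 and 0.63 on replicate 2. The other arrays ran from 0.91 (lung replicate 2) through a median of 1.40 to 2.37 (colon replicate 2). The groups do not overlap, and the difference was -0.89 ± 0.26 (SE, limma adjusted p = 0.9998). It was -0.61 within the scan day of muscle replicate 1, where all 5 other arrays were higher, and -0.95 with only the probes of both grids, since 1 of the 4 probes was not read on muscle replicate 2.

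Ky encodes a peptidase-like protein of the Z-disc that muscle needs for growth and for stable neuromuscular junctions. Its island (chr9:102362082-102362807, 7 probes from 296 bases before to 380 bases after the start site) scored -0.06 and -0.13 in muscle and from 0.04 (lung replicate 2) through 0.33 to 0.82 (pancreas replicate 2) elsewhere. No other array reached down to muscle, and at 6 of the 7 probes both muscle arrays were below the mean of the others. The difference was -0.47 ± 0.17 (SE, limma adjusted p = 0.9998), but -0.08 when the log ratios were taken from background-corrected median signals.

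The 8 other named islands below all others belong to genes of many roles, and their differences ran from -0.66 to -0.30 with an adjusted p of 0.9998 in limma for each. The largest was Caap1, an inhibitor of apoptosis, at -0.74 and -0.83 in muscle against -0.61 to 0.31 elsewhere (difference -0.66 ± 0.20, SE). At 1 of its 4 probes muscle was at -1.79 and -1.31. Several other arrays held there the Z that a log10 ratio of 0 takes on them, such as 0.0836 on colon replicate 2. Such values recur at probes of Mrpl22, Vstm4, Trnau1ap, Dlst, Asb8 and Smoc2. The part of such probes in the Caap1 difference was not tested. Mrpl22, a protein of the mitochondrial ribosome, was at -1.04 and -0.84 against -0.74 to 0.14 (difference -0.55 ± 0.15, SE). Vstm4, a membrane protein of the immunoglobulin type, was at -0.37 and -0.17 against -0.14 to 0.57 (difference -0.45 ± 0.15, SE). With background-corrected median signals these differences were -0.23 for Caap1, -0.14 for Mrpl22 and -0.05 for Vstm4. These 3 were below 0 in muscle, and the lowest of the other arrays lay close above the nearer muscle array in each. Dlst, a subunit of the 2-oxoglutarate dehydrogenase complex, Epb41l3, Trnau1ap, Asb8 and Smoc2 made up the rest, with gaps as narrow or narrower than that of Caap1. With those signals Dlst was at -0.02 and Smoc2 at -0.05. With probes bright in the input the difference was -0.12 for Trnau1ap, -0.08 for Dlst, -0.13 for Asb8 and -0.09 for Smoc2. At Asb8 the deposited table of Z-scores turned the difference from -0.30 to 0.09. The muscle arrays that read a probe were below the mean of the others at 2 of 4 Caap1 probes. The counts were 3 of 4 for Mrpl22, 7 of 8 for Vstm4 and 7 of 7 for Epb41l3. They were 4 of 8 for Dlst and for Asb8, 2 of 4 for Trnau1ap and 1 of 7 for Smoc2.

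Among the 20 islands where both muscle arrays lay above all 14 others, the one with the smallest p was at Srsf3, a splicing factor. Its promoter island (4 probes, 590 to 301 bases before the start site) scored -0.49 and -0.18 in muscle and -1.18 to -0.63 elsewhere, with a median of -0.90. All 16 values were below 0, so that this island stayed among the unmodified ones in muscle too. The difference was 0.57 ± 0.13 (SE, limma adjusted p = 0.9998) and was 0.04 with background-corrected median signals.

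The next was Sfxn1, a mitochondrial serine transporter, with 0.44 and 0.68 in muscle and -0.04 to 0.40 elsewhere (difference 0.39 ± 0.14, SE). Calm3, one of the calmodulin genes, scored -0.35 and -0.28 in muscle and -0.79 to -0.44 elsewhere (difference 0.32 ± 0.12, SE), and with background-corrected median signals its difference was -0.03. Hace1, a ubiquitin ligase, scored 0.50 and 0.21 against -0.20 to 0.19 (difference 0.32 ± 0.12, SE), and its difference was 0.17 without muscle replicate 1. In all 3 the nearest other array lay close below the lower muscle array.

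Zfp575, Ago1, Fto, Pcbd2 and Tmem59 made up the rest together with Ckm, the muscle creatine kinase. Their differences were 0.24 to 0.51. Without muscle replicate 1 that of Pcbd2 was 0.31 and that of Ago1 0.16, and that of Fto was -0.07 and that of Tmem59 -0.01 with background-corrected median signals. The island named for Ckm lies 3768 to 4426 bases before its start site and is shared in the annotation with Klc3, so that it does not cover the Ckm start site. It scored 0.39 and 0.33 in muscle and -0.13 to 0.28 elsewhere (difference 0.28 ± 0.13, SE, limma adjusted p = 0.9998), and muscle replicate 1 was above lung replicate 1 on its own slide by 0.16. At 1 of its 5 probes muscle replicate 2 held 0.0171, the Z that a log10 ratio of 0 takes on that array. The other tissues read -1.76 to -0.15 at this probe. Muscle replicate 2 held the same value at 1 probe of Calm3 and 1 of Fto. The part of such probes in these differences was not tested. A second Ckm island inside the gene scored -0.32 and 0.35 and overlapped the other tissues. By probe, the muscle arrays that read it were above the mean of the others at 3 of 4 for Srsf3 and 4 of 5 for Sfxn1. The counts were 3 of 5 for each of Calm3, Hace1, Ago1 and the Ckm island shared with Klc3. They were 1 of 3 for Zfp575, 3 of 6 for Fto, 2 of 4 for Pcbd2 and 5 of 11 for Tmem59.

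**Figure D3:**
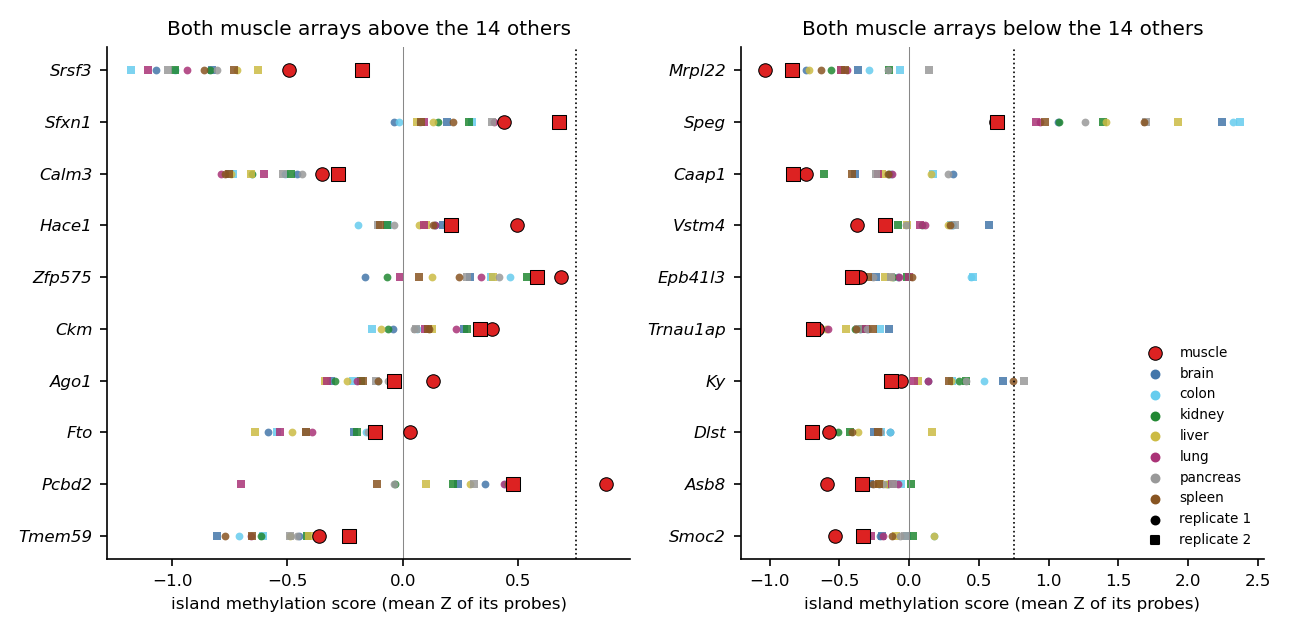
The x axis is the IMS, the mean Z of an island's probes, and each row is 1 island with its 16 adult arrays, muscle in large red symbols. The left panel holds the 10 named islands above all other arrays, from Srsf3 to Tmem59, and the right panel the 10 below all others, from Mrpl22 to Smoc2. The dotted line marks 0.75, and Speg is the one row on the right where every other array lies above it.

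The island with the smallest p of all was named after its values were seen. It lies inside Zfp423, a zinc finger factor of fat precursor and neural cells, and scored 2.95 and 2.77 in muscle against 0.93 to 3.12 elsewhere with a median of 1.41 (difference 1.04 ± 0.20, SE, limma adjusted p = 0.9998). Muscle was not alone in this, for the means of lung (2.75), kidney (2.70) and spleen (2.42) lay near it, while brain, colon, liver and pancreas had means of 1.15 to 1.28. The 5 embryo arrays scored 0.13 to 0.46.

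The genes of the sarcomere, the contractile unit of muscle, had 28 islands at 26 of the 64 genes listed. None was called in either direction, and the median difference was -0.02 against -0.01 over all islands. At an unadjusted p under 0.05, where 1.34% of all islands lie, there were 2 lower, Tpm2 and Des (0.828% of all islands were lower), and 0 higher.

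Tpm2 encodes beta-tropomyosin of slow and smooth muscle. Its promoter island (chr4:43544262-43545575, 11 probes from 1065 bases before to 204 bases after the start site) scored -0.08 and -0.13 in muscle. The other arrays ran from -0.24 (lung replicate 1) through a median of 0.36 to 1.00 (colon replicate 1), and 12 of the 14 were above both muscle arrays. By tissue the means were -0.16 in lung, 0.06 in brain, 0.31 in liver, 0.39 in kidney, 0.52 in pancreas, 0.55 in spleen and 0.97 in colon. The difference was -0.48 ± 0.14 (SE, 95% interval -0.79 to -0.17, limma adjusted p = 0.9998). With background-corrected median signals it was -0.26. Within its scan day muscle replicate 1 was at -0.30 from the 5 other arrays, yet it was 0.15 above lung replicate 1 of the same slide.

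Des encodes desmin, the intermediate filament that ties myofibrils together, and is named here after its values were seen. Its island (chr1:75243446-75244145, 6 probes around the start site) scored -0.14 and -0.19 in muscle and from -0.20 (pancreas replicate 1) through 0.37 to 1.36 (brain replicate 2) elsewhere, with 13 of 14 arrays above both muscle arrays. At all 6 probes both muscle arrays were below the mean of the others. The difference was -0.62 ± 0.25 (SE, limma adjusted p = 0.9998) and was -0.53 within the scan day, with all 5 arrays above muscle, and -0.38 with background-corrected median signals.

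The Des island lies 14158 bases from the Speg island described above, on the same chromosome. Of the 6 islands within 50000 bases of the pair, the 4 remaining did not share their level: a second Speg island between them scored 0.72 and 0.49 against a median of 0.81 elsewhere, and 2 islands further along Speg scored 1.19 and 1.99, and 0.18 and 1.62, with differences of 0.48 and 0.16. Dnpep, on the other side, scored 0.47 and -0.42.

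**Figure D4:**
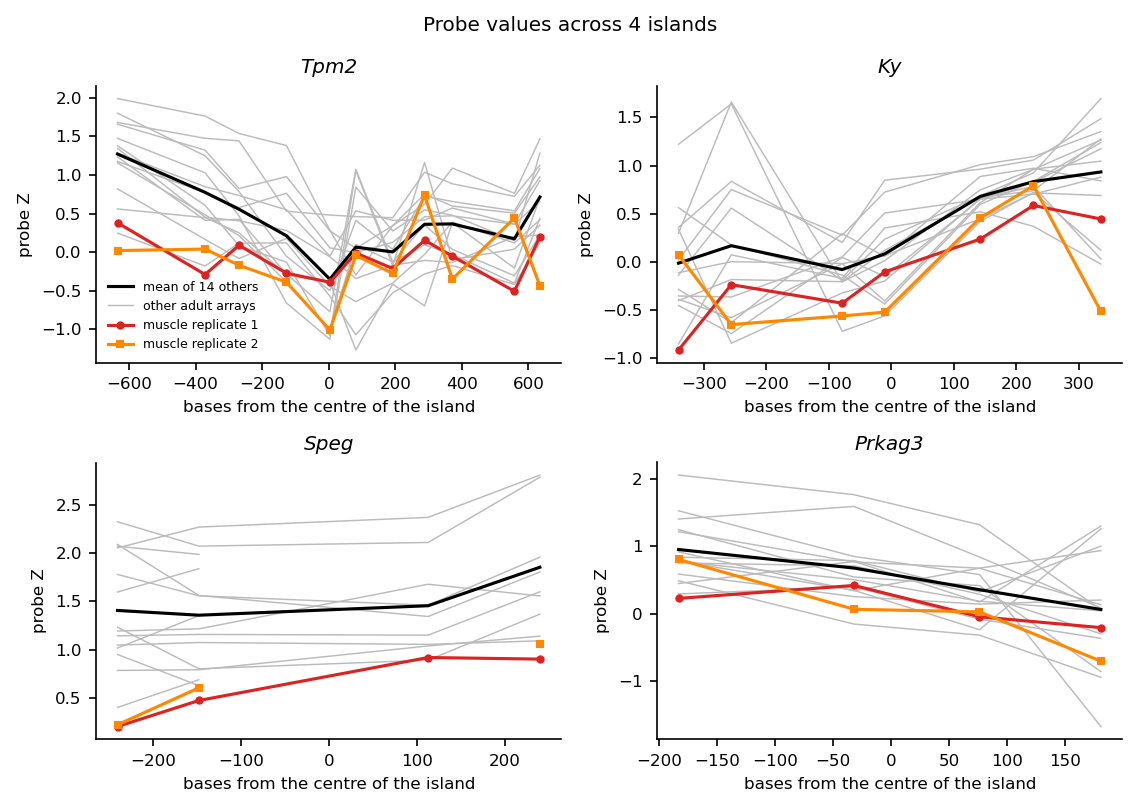
Each panel shows the Z-score of the probes of 1 island against the distance in bases from the centre of the island. Grey lines are the 14 other adult arrays, the black line is their mean, and red and orange are muscle replicates 1 and 2. Both muscle arrays lie below the mean at 9 of 11 Tpm2 probes, 6 of 7 Ky probes and 4 of 4 Prkag3 probes, and at the 3 Speg probes read on both.

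The myogenic regulators and their partners had 68 islands at 33 of 40 genes. None was called, and the median difference was 0.09 against -0.01 over all islands, with 46 islands above 0 and 22 below. At an unadjusted p under 0.05 there were 4 higher of 68, where 0.512% of all islands were higher, and 0 lower, where 0.828% were. The 4 were at Pitx3, Msx1 and Tbx1 (2 islands), the last 3 being named after their values were seen. The list mean was -0.04 on muscle replicate 1 and 0.29 on replicate 2, while the other arrays ran from -0.17 to 0.21, so that the higher level was that of replicate 2.

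Pitx3, a homeobox factor of muscle and of the lens, had the smallest p of the list. Its island inside the gene (12 probes, 11085 bases or more from the start site) scored -0.13 and 0.72 in muscle and from -0.78 through -0.58 to 0.66 (lung replicate 1) elsewhere, with 13 of 14 arrays below both. The difference was 0.79 ± 0.23 (SE, limma adjusted p = 0.9998), but 0.36 without muscle replicate 2 and 0.16 within the scan day. Msx1, a homeobox repressor of muscle differentiation, scored 1.13 and 1.44 against -0.28 to 1.56. Tbx1, a factor of head and branchial muscle, scored 0.41 and 1.60 at its first island and -0.25 and 1.41 at its second, the muscle arrays lying far apart.

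Myod1, the factor that defines the myogenic lineage, was below 0.75 on every adult array. Its island inside the gene (5 probes) scored -0.37 and -0.46 in muscle and from -0.74 to 0.43 elsewhere with a median of -0.24. The difference was -0.17 ± 0.21 (SE, 95% interval -0.64 to 0.29, limma adjusted p = 0.9998), and -0.09 without pancreas replicate 2. The 3 undifferentiated ES cell arrays scored 1.14 (EB5), -0.06 (J1) and 0.72 (TT2), and the mesoderm and endoderm cells derived from ES cells scored 0.89 to 1.11.

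Myog, the factor of terminal differentiation, was measured only through an island more than 8 kilobases downstream of its start, modified nearly everywhere, with 1.36 and 1.81 in muscle and 0.46 to 1.90 elsewhere (difference 0.37 ± 0.23, SE, limma adjusted p = 0.9998). The Myog difference was 0.14 without muscle replicate 2. Within the scan day of muscle replicate 1 it was -0.34, which sets that array alone against 5 others. Acta1, the skeletal actin, scored -0.13 and -0.30 within the gene against -0.40 to 0.28 (difference -0.16 ± 0.16, SE, limma adjusted p = 0.9998). That difference was 0.05 within the same scan day, again for muscle replicate 1 alone. Myf5 and Myf6 had no island with 3 probes on every adult array.

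Of the genes that couple excitation to calcium release, 16 of 31 had 26 islands, with a median difference of 0.03 and 0 called. At an unadjusted p under 0.05, where 1.34% of all islands lie, there were 0. The smallest p was that of Jph2, which holds the calcium store to the surface membrane, at 1.55 and 1.97 in muscle and 0.13 to 2.19 elsewhere (difference 0.51 ± 0.27, SE, limma adjusted p = 0.9998, and 0.29 without muscle replicate 2). Genes of the neuromuscular junction had 12 islands and a median of 0.02, and their smallest p was that of Erbb2, a neuregulin receptor (-0.25 and -0.42 against -0.42 to 0.09). The Erbb2 difference of -0.13 was 0.01 for muscle replicate 1 against the 5 other arrays of its scan day. No island of these lists had both muscle arrays beyond all others, where 0.15% of all islands were above and 0.181% below.

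The sarcolemma and dystrophin complex had 16 islands with a median of -0.02. At an unadjusted p under 0.05, where 0.512% of all islands were higher and 0.828% lower, there was 1 higher of 16 and 0 lower. This was Sgcb, a sarcoglycan, with -0.44 and 0.09 in muscle and -1.48 to -0.22 elsewhere (difference 0.61 ± 0.23, SE, limma adjusted p = 0.9998). The difference was 0.34 without muscle replicate 2 and 0.21 with background-corrected median signals. Its probes lie 3421 to 3915 bases before the start site.

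Energy metabolism genes had 21 islands with a median of 0.00. At an unadjusted p under 0.05 there was 1 lower, where 0.828% of all islands were lower, and 1 higher, where 0.512% were. The lower one was Prkag3, the AMPK subunit of glycolytic muscle, at 0.10 and 0.05 in muscle and from -0.23 (lung replicate 2) through 0.45 to 1.30 (colon replicate 1) elsewhere, with 12 of 14 arrays above both. The difference was -0.44 ± 0.15 (SE, 95% interval -0.76 to -0.12, limma adjusted p = 0.9998), and -0.05 with background-corrected median signals. At Prkag3 the lung mean was -0.09, below the muscle mean of 0.07. The higher one was the island shared by Ckm and Klc3.

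**Figure D5:**
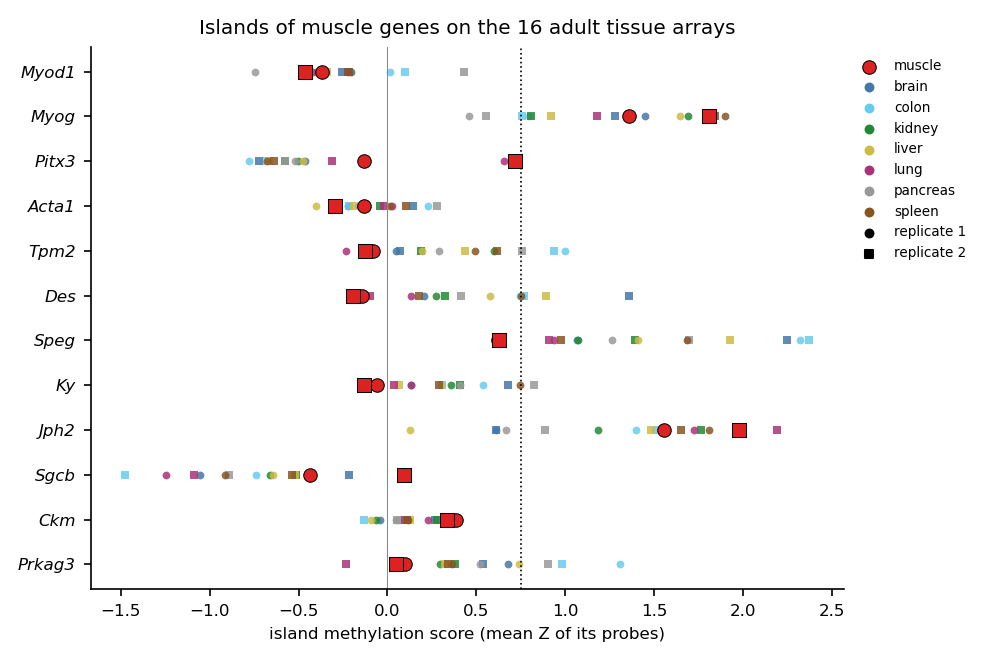
The x axis is the IMS and each row is the described island of 1 gene with a role in muscle, with the 2 muscle arrays in large red symbols and the 14 other adult arrays in smaller ones. Muscle lies towards the left of the Tpm2, Des, Speg, Ky and Prkag3 rows, at -0.08 and -0.13 for Tpm2 and at 0.62 and 0.63 for Speg. Lung replicate 1 lies further left at Tpm2, pancreas replicate 1 at Des and lung replicate 2 at Prkag3. In the Myod1, Myog, Acta1 and Jph2 rows it lies within the others.

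Regulators of body plan and of other lineages were looked at in the same way, and none of their islands was called. The medians were 0.06 over 67 islands of limb and trunk patterning genes, 0.05 over 67 Hox islands, -0.05 over 28 of heart regulators, -0.02 over 69 of neural, -0.02 over 35 of endoderm and -0.03 over 44 of blood regulators. The 2 muscle arrays were apart by 0.56 in their mean over the Hox islands (-0.18 and 0.38) and by 0.41 over limb and trunk genes. The gap between replicate 2 and 1 ran from -0.49 to 0.50 in the other tissues for Hox and from -0.36 to 0.40 for limb and trunk, so that the muscle gap was just above the widest of the other tissues.

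The island with the smallest p of each of these lists was Tbx2 for limb and trunk (2.09 and 1.75 in muscle, median 1.05 elsewhere), Hoxa7 (0.24 and 0.17, median -0.13), Irx4 for heart (-0.45 and -0.75, median -0.21), Nkx6-1 for neural (-0.58 and -0.001, median 0.02), Foxa2 for endoderm (-0.84 and -0.81, median -0.66) and Lyl1 for blood (0.76 and 1.87, median 0.74). All 6 overlapped the other arrays. The Lyl1 difference of 0.51 was -0.05 without muscle replicate 2. The Nkx6-1 difference of -0.36 was 0.04 with background-corrected median signals and -0.08 without muscle replicate 1. The Irx4 difference of -0.34 was -0.20 without muscle replicate 2. The Foxa2 difference of -0.50 ± 0.12 (SE, limma adjusted p = 0.9998) came with a colon mean of 1.91, was -0.13 without colon and was -0.04 within the scan day of muscle replicate 1. At an unadjusted p under 0.05, where 0.828% of all islands were lower and 0.512% higher, the heart list held 3 lower of 28 (Irx4, and Gata4 and Mesp1, named after their values were seen), the endoderm list 1 lower of 35 (Foxa2), the Hox list 1 higher of 67 (Hoxa7) and the others none. Foxa2 is a factor of endoderm, and muscle lay among brain, kidney, lung and spleen at this island, with means of -0.95 to -0.69.

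The label was checked against markers of muscle and of other cells in the tissue, by methylation alone, as no RNA was measured. Islands were scored at 3 of 8 fibre markers (Acta1, Actn3 and Ckm, 4 islands), 3 of 4 satellite cell markers (7 islands), 5 of 8 endothelial (6), 2 of 6 fibroblast (3), 3 of 6 adipocyte (4) and 4 of 6 Schwann cell markers (5), and at 0 of 6 white blood cell markers. The range of list means on the 14 other arrays held both muscle arrays for each of these lists. Single members differed from this: the Ckm island above, of the fibre list, was higher on both muscle arrays than on all others, and Thy1 of the fibroblast list, named after its values were seen, scored -0.19 and 0.05 against -0.62 to -0.07 and was the other marker island at an unadjusted p under 0.05, where 1.34% of all islands lie. These levels do not measure the cell mixture. In such whole tissue a change in cell mixture and a change within one cell type cannot be told apart.

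The 18 arrays outside the comparison include 5 of whole embryos of 8.5 to 12.5 days. Of the 10 named islands below all other adult arrays, the embryo median was below the lowest other adult array at 2 (Speg and Epb41l3) and below the median of the other adult arrays at 7. The same shares over all islands were not computed, so these counts are not read as a likeness of muscle and embryo. Epb41l3 scored -0.64 to -0.10 in embryos. The Speg island scored 0.33 to 0.66 over the 5 embryo arrays, with muscle at 0.62 and 0.63, and 0.82 to 2.19 over the 13 arrays of cultured cells, beta cells and teratomas. Tpm2 scored -0.38 to -0.17 in embryos and -0.06 to 1.25 on the 13 others. At Speg every embryo array lay below all 14 other adult arrays, and at Tpm2 the embryos were level with or below lung. All embryo arrays were of the smaller grid and shared no slide or scan day with an adult array. Their software version was 10.7.3.1 or 10.9.1.1, against 10.5.1.1 for the adult arrays. The part of grid, day and version in these levels was not tested.

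Des scored -0.06 to 0.20 in embryos, above both muscle arrays, and 0.30 to 2.15 on the 13 arrays, the highest being the embryoid bodies. Ky scored 0.15 to 0.43 in embryos and Prkag3 0.52 to 0.67, both above muscle. The mesoderm cells derived from ES cells scored 1.48 at Speg, 0.27 at Tpm2 and 0.45 at Ky, each above both muscle arrays. These levels are descriptions with single arrays for most cell types.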

How the data were processed

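Per the labels and the file headers, bound DNA was labelled with Cy5 and input DNA with Cy3 on Agilent mouse CpG island arrays, and the authors' Feature Extraction software subtracted background, normalized the dyes linearly and gave each probe its log10 ratio, bound DNA over input. The deposited intensity columns are median signals of spot and background, and the deposited series table holds a Z score per probe. The genome build is not given in the sources used here. From the log10 ratios a Z-score per array and the mean Z per island were computed (at least 3 probes, gaps of at most 500 bases, chromosomes 1 to 19), without control spots and without the study's adjustment for probe Tm. Muscle was set against the mean of the 7 other tissue means in limma 3.58.1 (R 4.3.3) with Benjamini-Hochberg adjustment over 13291 islands and a threshold of 0.05, and the fit was tested on simulated data. The methods' t-test of the 2 groups was run as an alternative. Shares of islands were compared with an exact permutation test. As no island passed, named islands are those of smallest unadjusted p with both muscle arrays beyond all 14 others (up to 10 in each direction), the smallest p of each gene list, and Myod1, Myf5, Myf6, Myog, Acta1 and Ckm. Zfp423, Des, Msx1, Tbx1, Gata4, Mesp1 and Thy1 were added after their values were seen. The members and lists were chosen with earlier results of these data known. Precision is limited by the number of arrays. Of 12521 gene names in the files, 265 could not be matched to RefSeq, and promoter sequences are from RefSeq (GRCm38.p6).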

Additional observations from a re-analysis of the deposited data

How the results depend on the processing

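No island was called in either direction under any of 42 alternatives. The smallest adjusted p over them was 0.367 in limma (without the tissue lung), and the islands at an unadjusted p under 0.05 numbered 74 to 761. With the replicate block 0 islands were called and 205 had an unadjusted p under 0.05. The numbers share no known animal, and the deviations of same-numbered arrays correlated at r = -0.32 to 0.49 over 28 pairs of tissues, 11 of them over 0.1.

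The difference in the share of islands above 0.75, -0.635 percentage points, was 1.74 with background-corrected median signals (normexp, chosen after seeing the data) and lay between -1.45 and 0.181 when 1 array was left out, the highest without muscle replicate 1. The 44 islands where both muscle arrays lay beyond all others became 13 with probes bright in the input, 29 with at least 5 probes, 287 with background-corrected median signals, 70 without pancreas, 74 without brain, 100 without lung and 100 without colon and pancreas. Leaving out 1 array gave 46 to 1546 (80 without lung replicate 2, 1329 without muscle replicate 1 and 1546 without muscle replicate 2, where 1 muscle array stands against 14). The cause was not tested for these, other than that fewer arrays are easier to exceed.

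Differences changed sign for Asb8 in the deposited table (0.0882), for Calm3 (-0.0349), Fto (-0.0653), Tmem59 (-0.00623) and Nkx6-1 (0.0401) with background-corrected median signals, for Lyl1 without muscle replicate 2 (-0.0471; range over left-out arrays -0.05 to 1.06), and for Erbb2 (0.00832), Myog (-0.337) and Acta1 (0.046) with scan day as a block without colon and pancreas. Muscle replicate 2 was alone on its scan day, so that block left only muscle replicate 1 against the 5 other arrays of its day. The cause was not tested. Over the alternatives in Z units (all but the log2 ratios) the difference ranged from -1.04 to -0.61 for Speg, -0.70 to -0.38 for Des, -0.65 to -0.26 for Tpm2, -0.67 to -0.08 for Ky, -0.54 to -0.05 for Prkag3 and 0.78 to 1.22 for Zfp423. Background correction of mean signals, slide as a fixed block and scan day as a fixed block over all tissues were not run, as the columns or the overlap they need were lacking, and software version did not vary between the adult arrays.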
